A study of Mus musculus with 11 samples.

Results

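The expression of 10 autophagy genes was followed in mouse embryonic fibroblasts given rapamycin, an siRNA against Crebl2, or both. The genes were Sqstm1 and Nbr1, which encode cargo receptors, Map1lc3b and Gabarapl1, which encode ATG8 proteins, Ulk1, Wipi1 and Becn1 of the initiation and nucleation steps, and Atg5, Atg12 and Atg7 of the conjugation system. They were taken by symbol from the platform annotation, with every probe of each symbol, and made up 10 of 22491 annotated genes and 17 of 46237 probes. Wipi1 and Becn1 had 3 probes each, Nbr1, Ulk1 and Atg5 had 2 each, and the other 5 genes had 1 each. RNA was measured on 11 single-colour Illumina bead arrays. All cells were of 1 embryonic fibroblast line with the genotype p53-/- and TSC2-/-, so the control cells carry both deletions too. TSC2 restrains mTORC1, the growth kinase complex that rapamycin inhibits. Cells transfected with an siRNA against luciferase (Luc), a gene mammalian cells do not have, and treated with ethanol, the vehicle, gave 2 arrays. Luc siRNA with 20 nM rapamycin for 12 h gave 3 arrays, as did Crebl2 siRNA under each of these treatments. The labels give 3 days of siRNA. Crebl2 is a small bZIP protein related to CREB. Nothing in the labels says whether replicates came from separate cultures, and the spread behind every p-value may therefore be technical.

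Autophagy encloses cytoplasm in a double membrane, the autophagosome, and delivers it to the lysosome. mTORC1 holds the pathway back by phosphorylating the ULK1 kinase. Once released, ULK1 and the Beclin 1 (Becn1) lipid kinase complex start a membrane that carries phosphatidylinositol 3-phosphate, WIPI proteins bind this lipid, and the ATG7, ATG12 and ATG5 proteins drive the attachment of LC3 and GABARAP proteins to the membrane. The receptors p62 (Sqstm1) and NBR1 bind ubiquitinated cargo and the ATG8 proteins, and are themselves degraded with the cargo. Messenger RNA levels of these genes are set in part by transcription factors of the TFEB, FoxO, NRF2 and ATF4 groups. The arrays measured RNA only, so they give neither protein levels nor the flux through the pathway. In such bulk RNA, fewer cells that express a gene and less RNA per cell cannot be told apart.

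Promoter sequences are shown for Sqstm1, Wipi1 and Atg5, because these genes had the differences between groups that the results below turn on. Each is 300 bases, from 250 before to 50 after the RefSeq start on assembly GRCm38.p6, printed 5′ to 3′ on the strand of the gene. Capitals mark a CACGTG E-box, the core of the element that TFEB and related factors bind.
Sqstm1 (chr11:50210771-50211070, minus strand): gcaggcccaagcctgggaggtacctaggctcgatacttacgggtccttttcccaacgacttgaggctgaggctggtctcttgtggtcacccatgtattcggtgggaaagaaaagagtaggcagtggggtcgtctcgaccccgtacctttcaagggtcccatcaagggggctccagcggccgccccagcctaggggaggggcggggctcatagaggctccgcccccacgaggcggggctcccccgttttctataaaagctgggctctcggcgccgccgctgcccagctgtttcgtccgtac
Wipi1 (chr11:109611340-109611639, minus strand): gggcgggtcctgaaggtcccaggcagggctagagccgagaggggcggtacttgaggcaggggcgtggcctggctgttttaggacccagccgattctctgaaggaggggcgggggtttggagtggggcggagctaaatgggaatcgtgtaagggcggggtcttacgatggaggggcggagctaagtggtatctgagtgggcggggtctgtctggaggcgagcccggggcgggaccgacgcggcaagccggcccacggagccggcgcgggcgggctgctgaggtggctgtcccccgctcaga
Atg5 (chr10:44268089-44268388, plus strand): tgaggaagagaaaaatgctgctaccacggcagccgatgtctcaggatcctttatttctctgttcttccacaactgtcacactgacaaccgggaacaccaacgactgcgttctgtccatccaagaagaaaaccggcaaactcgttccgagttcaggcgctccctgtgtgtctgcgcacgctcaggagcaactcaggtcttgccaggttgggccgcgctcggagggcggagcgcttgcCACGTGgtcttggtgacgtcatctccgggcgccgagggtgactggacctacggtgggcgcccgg
Promoter windows were matched for 8 of the 10 genes, in 9 windows, with Becn1 and Atg12 not matched. CACGTG, read on both strands, stood in the windows of 2 of the 8 genes, starting at position -14 in Atg5 and at position -132 in Atg7, and in 7.15% of all 32851 promoters of this length. The Atg7 window (chr6:114670846-114671145, plus strand) lies inside the span of the gene, 114643127 to 114860604, and so not at its outermost start. TGACNNNGC, the core of the antioxidant response element that NRF2 binds, stood in the window of 1 gene, Map1lc3b, 4 bases from the start, and in 12.4% of all promoters. GTAAACA, a FoxO site, and TGATGNAA, a C/EBP and ATF composite site, stood in 0 of the members' windows and in 3.65% and 3.97% of all promoters. No match overlapped another. A match is a description of these letters and not a measured binding site.

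Between 46.9% and 51.2% of the probes of an array were detected at p under 0.05, and 16 of the 17 probes were detected on all 11 arrays. The exception was ILMN_2489136 of Becn1, detected on 2 of 11 arrays. All 3 Crebl2 rapamycin arrays, together with replicate 3 of Crebl2 ethanol, stood apart from the other 7 arrays. The first principal component held 76.2% of the variance and separated these 4 from the 7. Across probes, arrays correlated at 0.989 to 0.995 within the 4, 0.984 to 0.996 within the 7 and 0.92 to 0.94 between them. Replicate 3 shares its labelled treatment with replicates 1 and 2, which were among the 7, yet 1423 probes were over 1 log2 unit higher and 35 over 1 log2 unit lower on it. Counts for the members are therefore also given without the 4 arrays or with membership in the 4 as a block. Because all 3 arrays of Crebl2 siRNA with rapamycin were among the 4, the offset between the sets rests in that block on replicate 3 alone.

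The labels were checked on the targets. The single Crebl2 probe lay near background, detected on 9 of 11 arrays, and its mean log2 level was 7.05 ± 0.0105 (SD, n = 2) with Luc siRNA and ethanol and 6.86 ± 0.20 (n = 3) with Crebl2 siRNA and ethanol. The difference was -0.19 ± 0.13 (SE; limma, adjusted p = 0.470) in ethanol and -0.30 ± 0.12 (adjusted p = 0.0820) in rapamycin, so a lower Crebl2 level did not pass the test in either medium. Probes of Tsc2 gave signal in every group, but the deleted part of the gene is not given in the sources used here, so they check nothing. Of 12 fibroblast markers 10 were detected on all arrays, Lum was detected on 0 arrays and Postn on at most 4. Of the markers of other cell types, Ptprc was detected on 0 arrays, and Adgre1 and Epcam on 1 array each. The other 4 of the 6 macrophage markers, Csf1r, Cd68, Cd14 and Aif1, were detected on all 11 arrays. The brightest of these, Cd14, reached an intensity of 243.5. The epithelial markers Cdh1, Krt8, Krt18 and Krt19 and the endothelial markers Kdr and Tek were also detected on all 11 arrays. The keratins Krt18 and Krt19 were bright. The summed intensity of the 6 endothelial markers lay between 698 and 794 on all arrays.

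With Luc siRNA, rapamycin lowered the RNA of the receptor Sqstm1 and raised that of Wipi1, a protein that binds phosphatidylinositol 3-phosphate on the forming membrane, and of 1 probe of the receptor Nbr1. In the fit of all 11 arrays 3 of the 17 probes were higher and 1 was lower, where 7.25% of all 28936 tested probes passed. Among the 7 arrays that did not stand apart, which include both groups of this comparison, 8 probes were higher and 2 lower, where 17.7% of all tested probes passed. The probes added there belonged to Map1lc3b, Gabarapl1, Ulk1, Nbr1 and Atg5. Counting only the brightest probe of each gene, 2 of the 10 genes were higher and 1 lower in the 11 arrays, where 9.25% of 15908 genes passed. Among the 7 arrays 5 of the 10 were higher and 1 lower, where 21.2% of genes passed. The median log2 difference was 0.20 over the 17 probes and 0.01 over all probes. The groups did not overlap at 13 of the 17 probes, and at 41.0% of all probes.

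The log2 level of Sqstm1 was 13.09 and 13.10 on the ethanol arrays and 12.38, 12.54 and 12.55 on the rapamycin arrays. All 3 rapamycin arrays lay below both ethanol arrays, and the difference was -0.60 ± 0.13 (SE; limma, adjusted p = 0.0171), a ratio of 0.658 on the linear scale. The adjusted p was 6.55e-05 among the 7 arrays and 0.0755 after neqc, another background correction and normalization. It was 0.116 and 0.135 without the first and the second Luc ethanol array, and 0.0596 without replicate 1 of Luc rapamycin. Nbr1, the receptor that shares the ubiquitin-binding and LC3-binding design of p62, moved the other way. Its probe ILMN_1220889 read 7.43 and 7.40 in ethanol and 7.72, 8.01 and 7.74 in rapamycin. Every rapamycin array was above both ethanol arrays, with a difference of 0.41 ± 0.11 (adjusted p = 0.0490, and 0.00649 among the 7 arrays). It passed in 2 of the 11 fits of 10 arrays, with an adjusted p of up to 0.262 when the second Luc ethanol array was left out. Over all 23 alternatives this probe passed in 11. Its adjusted p was 0.107 after neqc, 0.0651 when quantile normalized again and 0.0527 with no filter on dim probes. The other Nbr1 probe, ILMN_2664797, differed by 0.34 ± 0.10 with no overlap (adjusted p = 0.0847, and 0.0216 among the 7).

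**Figure D1:**
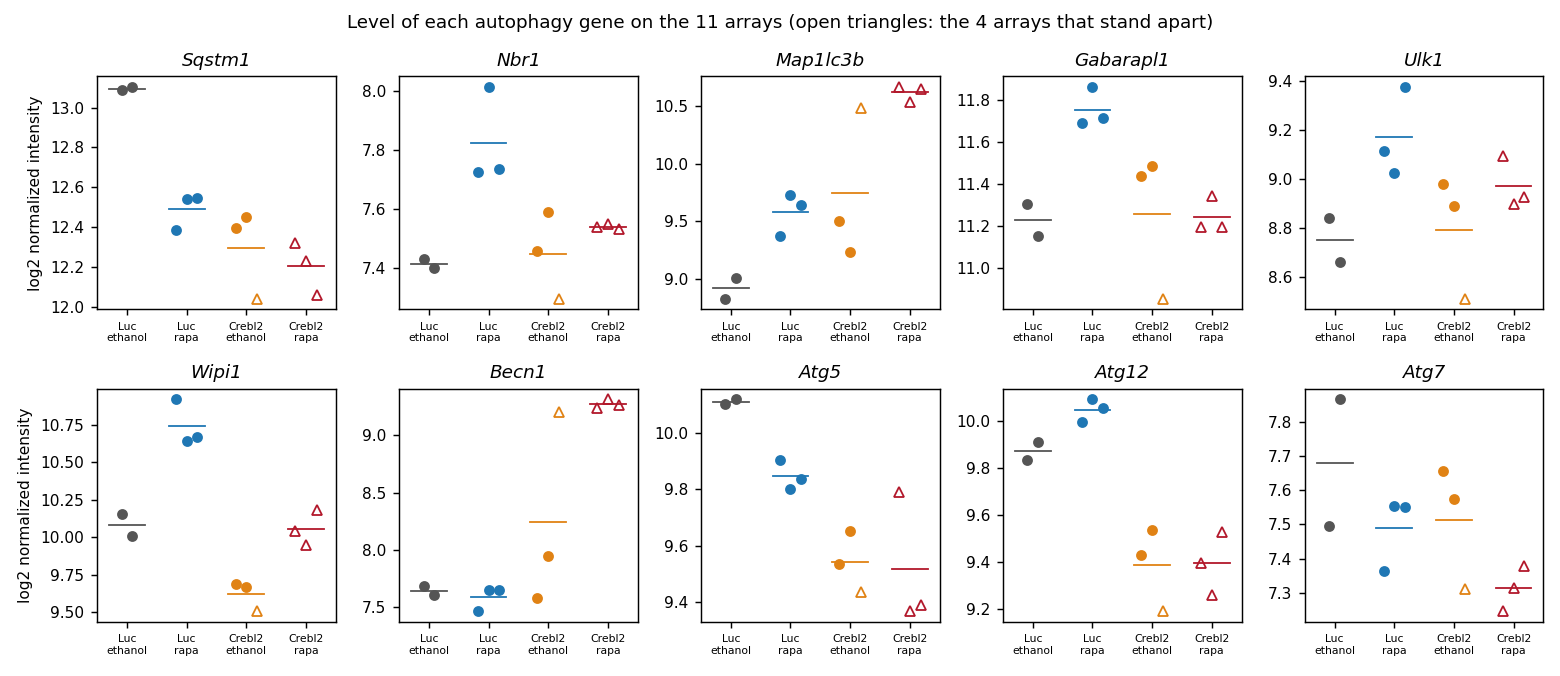
Log2 normalized intensity (vertical axis) of 1 probe per gene on each of the 11 arrays, by group (horizontal axis), with the group mean as a line. Open triangles mark the 4 arrays that stand apart. Sqstm1 is highest on the 2 Luc ethanol arrays, and Map1lc3b and Becn1 are highest on the 4 triangles.

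The RNA of Map1lc3b and Gabarapl1, whose ATG8 proteins coat the growing membrane and anchor the receptors, was above that of the controls. Map1lc3b, which encodes LC3B, read 8.83 and 9.01 in ethanol and 9.37, 9.73 and 9.65 in rapamycin. Gabarapl1 read 11.30 and 11.15 in ethanol and 11.69, 11.86 and 11.71 in rapamycin. Neither gene's groups overlapped. The differences were 0.66 ± 0.28 (adjusted p = 0.229) for Map1lc3b and 0.53 ± 0.17 (adjusted p = 0.0883) for Gabarapl1 over 11 arrays. The adjusted p-values were 0.000190 and 0.000362 among the 7 arrays. The 11-array fit takes its spread from all groups, and within Crebl2 ethanol the log2 level of replicate 3 minus the mean of replicates 1 and 2 was 1.12 for Map1lc3b and -0.61 for Gabarapl1.

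Of the initiation and nucleation genes, Wipi1 rose on 2 of its 3 probes. The brightest of them, ILMN_2834677, read 10.16 and 10.01 in ethanol and 10.92, 10.64 and 10.67 in rapamycin. Probe ILMN_1236411 read 9.08 and 9.10 in ethanol and 9.83, 9.95 and 10.07 in rapamycin. On both probes the groups were apart, by 0.66 ± 0.11 (adjusted p = 0.00571) and 0.86 ± 0.11 (adjusted p = 0.00109), and the second difference is a 1.81-fold higher level. ILMN_1236411 passed under all 22 alternatives that could be run for it. ILMN_2834677 missed the threshold without the second Luc ethanol array (adjusted p = 0.0850) and after neqc (adjusted p = 0.0646). The third probe, ILMN_1216091, did not pass, with overlapping groups and a difference of the same sign, 0.20 ± 0.22 (adjusted p = 0.749). Ulk1, the kinase that starts the pathway, read 8.84 and 8.66 in ethanol and 9.11, 9.02 and 9.37 in rapamycin on ILMN_1228475. Both Ulk1 probes were above their controls without overlap, by 0.42 ± 0.15 (adjusted p = 0.140) and 0.44 ± 0.14 (adjusted p = 0.103). Among the 7 arrays the adjusted p-values for Ulk1 were 0.00738 and 0.00174. Becn1, the scaffold of the lipid kinase complex, differed by -0.06 on ILMN_3090581 and 0.02 on ILMN_3018758, and its dim probe ILMN_2489136 stood near background in both groups.

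Of the 4 probes of the conjugation genes 0 passed over 11 arrays, and 1, of Atg5, passed downward among the 7. ATG5 joins ATG12 in a conjugate that directs LC3 to the membrane, and ATG7 is the enzyme that activates both ATG12 and the ATG8 proteins. The brightest Atg5 probe, ILMN_2998139, read 10.10 and 10.12 in ethanol and 9.90, 9.80 and 9.84 in rapamycin, a difference of -0.26 (adjusted p = 0.289, and 0.0520 among the 7 arrays). The other Atg5 probe, ILMN_2998135, differed by -0.30 (adjusted p = 0.132, and 0.0420 among the 7 arrays). Neither Atg5 probe's groups overlapped. Atg12 read 10.00, 10.09 and 10.06 in rapamycin, all above its 2 controls at 9.83 and 9.91, a difference of 0.18 (adjusted p = 0.478). Atg7 read 7.50 and 7.86 in ethanol and 7.36, 7.55 and 7.55 in rapamycin, which overlap, and differed by -0.19 (adjusted p = 0.522).

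The summed intensity of the 11 tested fibroblast markers lay between 39756 and 41073 with Luc siRNA and ethanol and between 50105 and 51807 with Luc siRNA and rapamycin. The part of this shift in the gene differences was not tested.

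**Figure D2:**
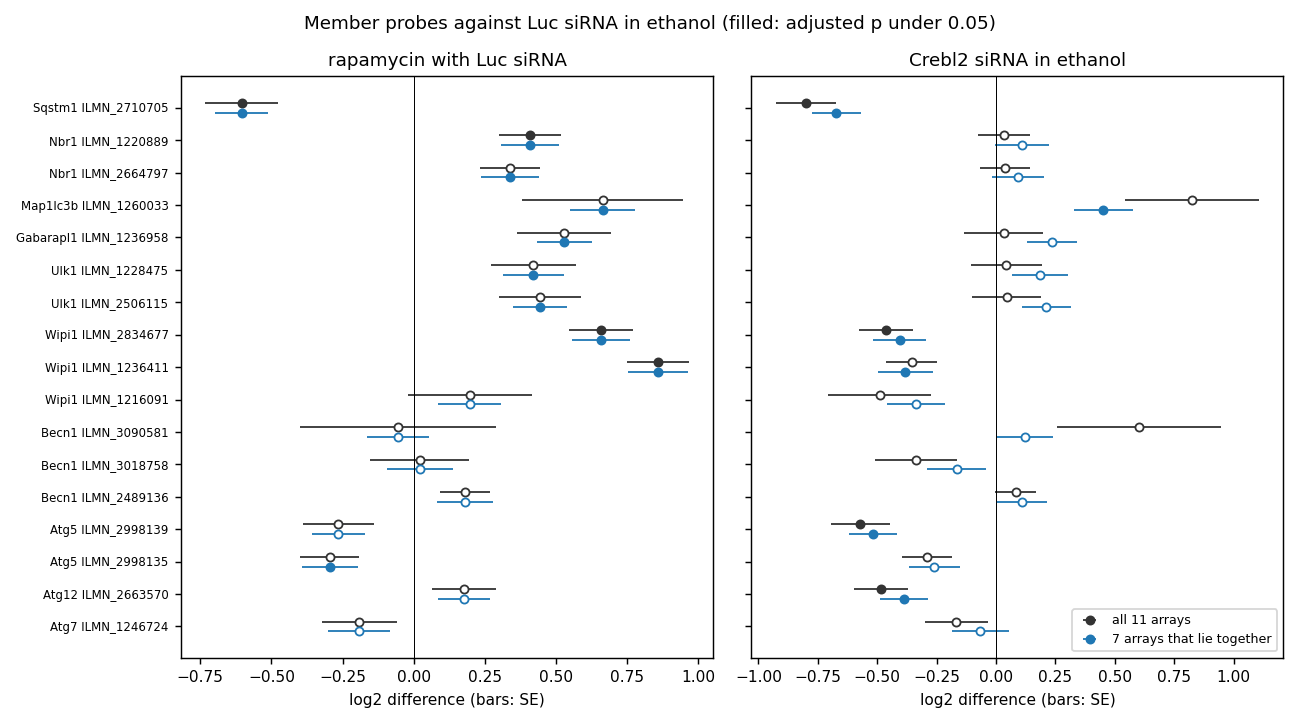
Log2 difference from Luc siRNA with ethanol (horizontal axis) of each of the 17 probes, for rapamycin with Luc siRNA (left) and Crebl2 siRNA in ethanol (right), over all 11 arrays (dark) and among the 7 arrays that lie together (blue). Bars are 1 standard error of the fit and filled points have an adjusted p under 0.05; Sqstm1 is lower in both panels, and the 3 Wipi1 probes lie right of 0 on the left and left of 0 on the right.

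In ethanol, Crebl2 siRNA was accompanied by lower RNA of Sqstm1, Wipi1, Atg5 and Atg12. Of the 17 probes 0 rose and 4 fell, where 5.52% of all tested probes passed, and 6.64% of the genes by their brightest probe. Using the 7 arrays, thus only replicates 1 and 2 of Crebl2 ethanol, 6 probes passed, 1 higher and 5 lower, where 10.6% of all tested probes did, and 12.5% of the genes by their brightest probe. By the brightest probe, 0 of the 10 genes rose and 4 fell over 11 arrays, and 1 rose and 4 fell among the 7. The median log2 difference was -0.17 over the 17 probes and -0.02 over all probes. The groups did not overlap at 10 of the 17 probes, and at 35.4% of all probes. This comparison and that of rapamycin with Luc siRNA use the same 2 Luc ethanol arrays, so that a deviation of those arrays enters both.

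Sqstm1 read 12.40, 12.45 and 12.04 with Crebl2 siRNA, all below the Luc ethanol arrays given above, with replicate 3 the lowest. The difference was -0.80 ± 0.13 (adjusted p = 0.00610), and -0.67 (adjusted p = 0.000143) among the 7 arrays. In order, the mean log2 levels of Sqstm1 were 13.10 ± 0.010 (SD, n = 2) with Luc siRNA and ethanol, 12.49 ± 0.092 (n = 3) with Luc siRNA and rapamycin, 12.29 ± 0.22 (n = 3) with Crebl2 siRNA and ethanol and 12.20 ± 0.13 (n = 3) with both. The last 3 groups overlapped their neighbours in this order, and the Luc ethanol group overlapped none.

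Wipi1 probe ILMN_2834677 read 9.69, 9.67 and 9.51, below both controls, a difference of -0.46 ± 0.11 (adjusted p = 0.0389, and 0.0206 among the 7 arrays). ILMN_1236411 read 8.87, 8.55 and 8.79, a difference of -0.36 (adjusted p = 0.0912, and 0.0384 among the 7 arrays). Among the 7 arrays these 2 Wipi1 probes thus passed downward with the Crebl2 siRNA and upward with rapamycin. The third Wipi1 probe, ILMN_1216091, differed by -0.49 without overlap and did not pass (adjusted p = 0.255, and 0.0852 among the 7 arrays). Atg5 probe ILMN_2998139 read 9.54, 9.65 and 9.44, below both controls, a difference of -0.57 ± 0.12 (adjusted p = 0.0251), and -0.52 (adjusted p = 0.00163) among the 7 arrays. Its other probe differed by -0.29 (adjusted p = 0.149). Atg12 read 9.83 and 9.91 with Luc siRNA and 9.43, 9.54 and 9.19 with Crebl2 siRNA. These groups did not overlap either, and the difference was -0.48 ± 0.11 (adjusted p = 0.0321), and -0.39 (adjusted p = 0.0154) among the 7 arrays. Map1lc3b was the probe that passed upward among the 7 arrays, by 0.45 (adjusted p = 0.0211), against 0.82 ± 0.28 (adjusted p = 0.134) over all 11. Nbr1, Gabarapl1, Ulk1, Becn1 and Atg7 did not pass on any probe in either fit. For Gabarapl1 the arrays with Crebl2 siRNA read 11.44, 11.49 and 10.85 and for Ulk1 ILMN_1228475 they read 8.98, 8.89 and 8.51, with replicate 3 below both controls and the other replicates above them.

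All 4 calls were lost when either control array was left out. Without the first Luc ethanol array the adjusted p was 0.0576 for Sqstm1, 0.271 for Wipi1, 0.151 for Atg5 and 0.148 for Atg12, and without the second it was 0.0782, 0.144, 0.183 and 0.242, with the sign kept each time. Of the 11 fits that left out 1 array, Sqstm1 passed in 9, Atg5 in 8, Atg12 in 6 and Wipi1 in 4. After neqc Sqstm1 passed (adjusted p = 0.0408), and Wipi1 (0.187), Atg5 (0.118) and Atg12 (0.144) did not. The summed intensity of the 4 tested epithelial markers lay between 4685 and 4747 in the Luc ethanol arrays and between 2452 and 4161 with Crebl2 siRNA in ethanol. Krt19, the brightest of these markers, read 11.72 and 11.67 with Luc siRNA. With Crebl2 siRNA it read 11.49, 11.59 and 10.56, lowest on replicate 3, which stands apart. The part of the summed intensity in these differences was not tested.

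**Figure D3:**
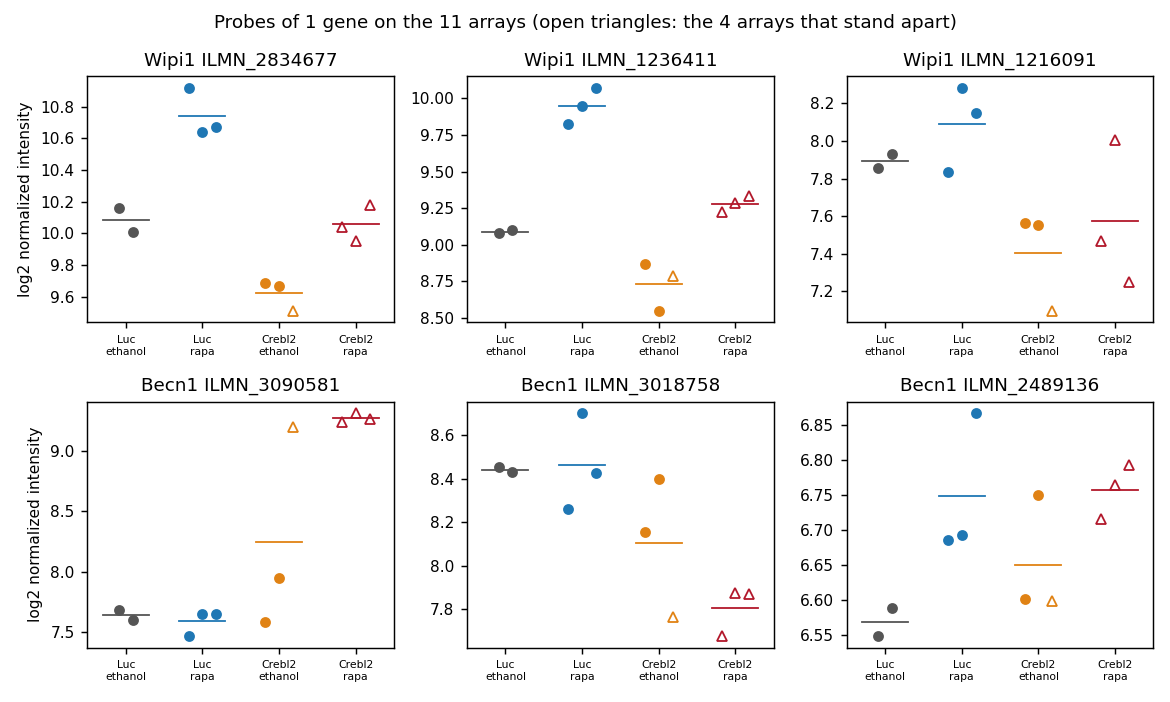
Log2 normalized intensity (vertical axis) of the 3 Wipi1 and the 3 Becn1 probes on each of the 11 arrays by group (horizontal axis), with the group mean as a line. Open triangles mark the 4 arrays that stand apart, which are the highest for Becn1 ILMN_3090581 and the lowest for ILMN_3018758.

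Comparisons with the Crebl2 rapamycin arrays set arrays that stand apart against arrays that do not. Crebl2 siRNA against Luc siRNA in rapamycin gave 2 probes higher and 9 lower of 17 over all 11 arrays, where 30.0% of all tested probes passed and 32.5% of the genes by their brightest probe. With the 4 arrays as a block 1 of the 17 passed, where 1.99% of all probes and 2.57% of the genes by their brightest probe did. By the brightest probe, 2 of the 10 genes were higher and 5 lower over 11 arrays, and 0 passed with the block. The groups did not overlap at 13 of the 17 probes, and at 48.1% of all probes. The median log2 difference was -0.29 over the 17 probes and -0.07 over all probes. The probe that passed in both fits was Wipi1 ILMN_1236411, at 9.83, 9.95 and 10.07 with Luc siRNA and 9.22, 9.29 and 9.33 with Crebl2 siRNA. The log2 difference was -0.67 ± 0.097 (adjusted p = 0.00168), and -0.75 with the block (adjusted p = 0.0155). Its neighbour ILMN_2834677 differed by -0.69 ± 0.10 (adjusted p = 0.00170) and by -0.52 with the block (adjusted p = 0.111). The third Wipi1 probe, ILMN_1216091, had overlapping groups. It differed by -0.51 (adjusted p = 0.0705) and by -0.052 with the block (adjusted p = 0.963).

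Map1lc3b and Becn1 show how far the division between the arrays reaches. Map1lc3b read 9.50 and 9.24 on replicates 1 and 2 of Crebl2 ethanol, 10.49 on replicate 3, and 10.67, 10.54 and 10.66 in Crebl2 rapamycin. The 4 arrays that stand apart thus read above all 7 others, across the ethanol and rapamycin labels. The 11-array difference in rapamycin of 1.04 ± 0.25 (adjusted p = 0.0115) became -0.079 with the block (adjusted p = 0.914). Becn1 ILMN_3090581 read 7.58 and 7.95 on replicates 1 and 2, 9.20 on replicate 3, and 9.24, 9.31 and 9.27 in Crebl2 rapamycin. Becn1 ILMN_3018758 read 8.15 and 8.40, then 7.76, and 7.68, 7.88 and 7.87. The 2 probes of this gene therefore gave opposite signs, 1.69 ± 0.31 (adjusted p = 0.00404) and -0.65 ± 0.16 (adjusted p = 0.0104), and 0.25 (adjusted p = 0.577) and -0.14 (adjusted p = 0.821) with the block. Their log2 levels correlated at -0.878 over the 11 arrays and at 0.277 over the 7. No direction is given for Becn1.

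Gabarapl1 differed by -0.51 ± 0.15 (adjusted p = 0.0242) over 11 arrays, lost without replicate 2 of Luc rapamycin among others (adjusted p = 0.0855), and by 0.099 with the block (adjusted p = 0.861). Atg12 read 9.40, 9.26 and 9.53 in Crebl2 rapamycin, below all 3 Luc rapamycin arrays, and differed by -0.65 ± 0.10 (adjusted p = 0.00207) and by -0.36 with the block (adjusted p = 0.287). Nbr1 ILMN_1220889 read 7.54, 7.55 and 7.53, also below its 3 Luc rapamycin arrays. Both Nbr1 probes differed by -0.28 (adjusted p = 0.0498 and 0.0436) and both Atg5 probes by -0.33 and -0.27 (adjusted p = 0.0459 and 0.0498), and none of these passed with the block or after neqc. The Nbr1 and Atg5 calls were each kept in 2 to 4 of the 11 fits that left out 1 array. Sqstm1 differed by -0.29 (adjusted p = 0.0823), and by 0.09 with the block (adjusted p = 0.873). The summed intensity of the 4 tested macrophage markers lay between 598 and 666 with Luc siRNA and rapamycin and between 500 and 536 with Crebl2 siRNA and rapamycin, and that of the 4 tested epithelial markers between 4551 and 5201 and between 3319 and 3749, and their part in the differences was not tested.

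**Figure D4:**
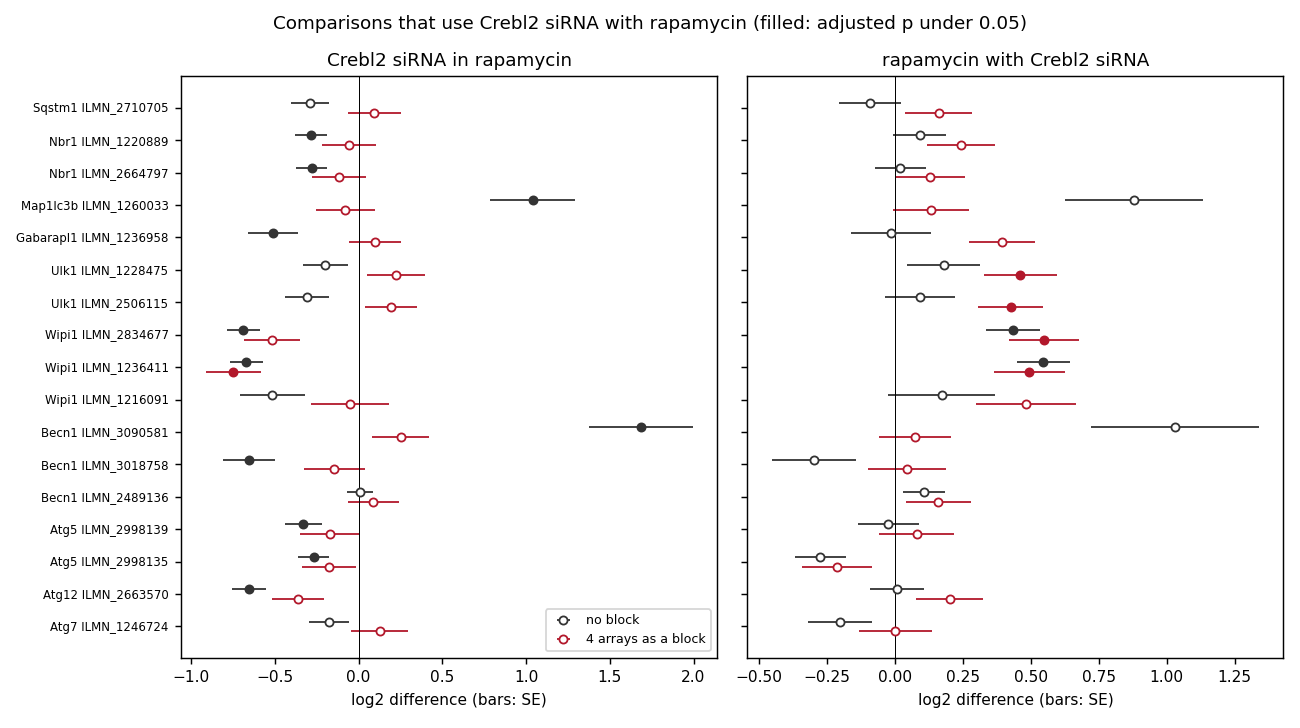
Log2 difference (horizontal axis) of each of the 17 probes between the siRNAs in rapamycin (left) and between rapamycin and ethanol under Crebl2 siRNA (right), without a block (dark) and with the 4 arrays as a block (red). Bars are 1 standard error and filled points have an adjusted p under 0.05; in the left panel Map1lc3b moves from 1.04 to -0.079 and Wipi1 ILMN_1236411 stays below 0 in both fits.

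Under the Crebl2 siRNA, rapamycin raised 2 of the 3 Wipi1 probes, the ones it raised with Luc siRNA. Of the 17 probes 2 were higher and 0 lower, where 9.03% of all probes passed and 10.7% of the genes by their brightest probe. With the block, which here compares the 3 rapamycin arrays with replicate 3 of Crebl2 ethanol, 4 were higher and 0 lower, where 5.34% of all probes and 6.60% of the genes by their brightest probe passed. By the brightest probe, 1 of the 10 genes was higher and 0 lower over 11 arrays, and 2 were higher and 0 lower with the block. The groups did not overlap at 5 of the 17 probes, and at 23.9% of all probes. The median log2 difference was 0.09 over the 17 probes and -0.02 over all probes. Wipi1 ILMN_2834677 read 10.04, 9.95 and 10.18 in rapamycin and rose by 0.44 ± 0.10 (adjusted p = 0.0265; 0.55 and 0.0109 with the block). ILMN_1236411 rose by 0.55 ± 0.10 (adjusted p = 0.00998; 0.49 and 0.0234 with the block). All 3 rapamycin arrays were above all 3 ethanol arrays on both probes. ILMN_1236411 passed in all 11 fits that left out 1 array, and ILMN_2834677 in 6 of them, with an adjusted p of 0.106 without replicate 3 of Crebl2 rapamycin. With only these 2 groups in the fit neither passed (adjusted p = 0.0656 and 0.0869), and after neqc ILMN_2834677 did not (adjusted p = 0.116). The third probe, ILMN_1216091, had overlapping groups and differed by 0.17 (adjusted p = 0.636). The Ulk1 probes differed by 0.18 (adjusted p = 0.441) and 0.09 (adjusted p = 0.714), and passed with the block at 0.46 (adjusted p = 0.0430) and 0.43 (adjusted p = 0.0351). Sqstm1 read 12.32, 12.23 and 12.06 in rapamycin, inside the range of its ethanol arrays. The summed intensity of the 11 tested fibroblast markers lay between 43687 and 49799 in Crebl2 ethanol and between 52610 and 54467 in Crebl2 rapamycin. Its markers Col1a2 and Col3a1 followed the division between the arrays. Col1a2 read 8.145, 8.227 and 11.98 on replicates 1, 2 and 3 of Crebl2 ethanol, and 11.91, 11.87 and 12.05 in Crebl2 rapamycin. For Col3a1 these levels were 9.055, 9.205 and 13.04, and 12.93, 12.7 and 12.83. The part of the summed intensity in these differences was not tested.

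Whether the Crebl2 siRNA changed the response to rapamycin was tested as the interaction of siRNA and rapamycin. In the limma fit of 11 arrays 0 of the 17 probes passed, where 0.232% of all probes passed, and 0.308% of the genes by their brightest probe. In that fit 4 of the 17 probes had an unadjusted p under 0.05, as did 3837 of all 28936 tested probes. With the block 1 of the 17 passed, where 1.42% of all probes did. That probe was Sqstm1, whose interaction was 0.51 ± 0.17 (adjusted p = 0.277) over 11 arrays and 0.77 (adjusted p = 0.00938) with the block. Its response to rapamycin was -0.60 with Luc siRNA and, with Crebl2 siRNA, -0.092 over 11 arrays and 0.16 with the block. The blocked value rests on replicate 3 of Crebl2 ethanol and on the 2 Luc ethanol arrays.

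Of 54 other autophagy genes, 47 were tested. With Luc siRNA, rapamycin raised 6 and lowered 1, where 9.25% of all genes passed by their brightest probe, and 13 and 4 among the 7 arrays, where 21.2% did. The median log2 difference over the 47 was 0.12. Wdr45, which encodes a relative of WIPI1 that binds the same lipid, rose by 1.29 ± 0.11 (adjusted p = 0.000160). Atg13, a subunit of the ULK1 complex, rose by 0.74 ± 0.17 (adjusted p = 0.0237). Stbd1, a receptor for glycogen, fell by 1.92 ± 0.13 on the log2 scale (adjusted p = 3.68e-05). With the Crebl2 siRNA in ethanol 0 rose and 3 fell, where 6.64% of genes passed, and 1 and 4 among the 7 arrays, where 12.5% did. The median was -0.04. Of these Stbd1 fell by 1.61 ± 0.13 on the log2 scale (adjusted p = 0.000172), a difference of -1.48 among the 7 arrays (adjusted p = 9.59e-09). The others, named after their values were seen, were Atg10 at -0.64 (adjusted p = 0.0255) and Retreg1 at -0.55 (adjusted p = 0.0321), and at -0.53 (adjusted p = 0.00636) and -0.62 (adjusted p = 0.0014) among the 7 arrays. Under the Crebl2 siRNA, rapamycin raised 6 and lowered 1, where 10.7% of genes passed, or 4 and 0 with the block, where 6.60% did. Wdr45 rose by 0.88 (adjusted p = 0.00133) and Calcoco1, a receptor for the endoplasmic reticulum and Golgi, by 0.73 (adjusted p = 0.00123), and both passed with the block, at 0.75 each. The gene lowered was Atg16l1, which holds the ATG12 and ATG5 conjugate at the membrane, at -0.40 (adjusted p = 0.0240), and at -0.24 with the block (adjusted p = 0.318).

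Between the siRNAs in rapamycin, 5 of the 47 genes were higher and 12 lower, where 32.5% of genes passed, but 0 and 1 with the block, where 2.57% did. Gabarapl2, an ATG8 protein, differed by 3.53 ± 0.69 (adjusted p = 0.00508), and by 0.19 with the block (adjusted p = 0.705). It was detected on 1 of the 3 Luc rapamycin arrays, and its log2 level was between 6.70 and 6.95 on the 7 arrays and between 10.12 and 10.45 on the 4. Atg10, the enzyme that joins ATG12 to ATG5, differed by -0.96 (adjusted p = 0.00107), and by -0.62 with the block (adjusted p = 0.0636). The gene that passed with the block was Retreg1, a receptor for the endoplasmic reticulum, at -0.78 (adjusted p = 0.0165). Among the 47, the interaction passed at 1 gene, Stbd1, where 0.308% of genes passed, and it was lost after neqc (adjusted p = 0.0958) and without the second Luc ethanol array (adjusted p = 0.117).

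Of 9 transcription factors linked to autophagy genes, 8 were tested, and 0 rose and 2 fell with rapamycin under Luc siRNA as well as with the Crebl2 siRNA in ethanol. The shares of all genes that passed were 9.25% and 6.64%. Among the 7 arrays 2 rose and 3 fell with rapamycin, where 21.2% of genes passed, and 1 rose and 3 fell with the Crebl2 siRNA, where 12.5% did. Ddit3, the stress factor CHOP, fell by 3.00 ± 0.31 on the log2 scale with rapamycin (adjusted p = 0.000385) and fell by 2.62 ± 0.31 on that scale with the Crebl2 siRNA (adjusted p = 0.00122), the latter -2.21 among the 7 arrays (adjusted p = 2.97e-10). The other, Nfe2l2, was named after its values were seen because it encodes NRF2, a known activator of Sqstm1 transcription. It differed by -0.44 ± 0.09 (adjusted p = 0.0188) with rapamycin and by -0.71 ± 0.09 (adjusted p = 0.00251) with the Crebl2 siRNA. The latter was -0.67 among the 7 arrays (adjusted p = 0.00019). Its part in the Sqstm1 levels was not tested. Atf4, also named after its values were seen, read 13.17 and 13.24 with Luc siRNA and ethanol. It read 12.66, 12.53 and 12.52 with Luc siRNA and rapamycin, and 12.89, 12.86 and 13.61 with Crebl2 siRNA and ethanol. Its difference with the Crebl2 siRNA was -0.082 (adjusted p = 0.852), and -0.33 (adjusted p = 0.0417) among the 7 arrays. Between the siRNAs in rapamycin 1 of the 8 was higher and 3 were lower, where 32.5% of genes passed, and 0 passed with the block. The higher was Zkscan3, a repressor of autophagy genes, at 1.90 (adjusted p = 0.00661), which was 0.01 with the block (adjusted p = 0.991), and Ddit3 was at -1.13 (adjusted p = 0.0115), which was 0.09 with the block (adjusted p = 0.905). Under the Crebl2 siRNA, rapamycin lowered 1 of the 8 and raised 0, where 10.7% of genes passed. This was Ddit3, at -1.51 (adjusted p = 0.0110; -0.70 and 0.00376 with the block).

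The genes whose levels followed Sqstm1 most closely were chosen by Pearson correlation over the 11 arrays among 9916 genes detected on all of them. They were Gtpbp2 (0.976), Sde2 (0.967), Stambpl1 (0.963), Dnajc21 (0.961) and Fer (0.959). Over the 7 arrays that did not stand apart, the same coefficients were 0.961, 0.942, 0.998, 0.972 and 0.957. The arrays share groups and the division described above, so these coefficients describe likeness over these arrays only.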

How the data were processed

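RNA of 11 samples was hybridised to Illumina mouse bead arrays in 1 colour. Per the labels' protocols, total RNA was isolated with TRIZOL, amplified with biotin and stained with Cy3-streptavidin. Groups were taken from the labels. The labels name Crebl2 and 3 days of siRNA, the series' design text Creb2 and 2.5 days, and Crebl2 was used. Per the file headers, the authors' deposited normalized table holds an intensity on a linear scale and a detection p-value for each probe and array; the method of normalization is not given in the sources used here. The deposited series matrix holds the same intensities, with 0 values different at a tolerance of 1e-06. In the deposited non-normalized table the probe identifiers are not those of the values beside them: joined by identifier the arrays correlated between -0.00964 and -0.00628, and after matching all 46237 lines by their ranks between 0.999653 and 0.999996. The normalized table was therefore used, with the matched table as an alternative.

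Intensities were log2 transformed with no pseudocount. A probe entered if its detection p was under 0.05 on 2 arrays or more, which left 28936 of 46237 for 1 fit of all 4 groups with limma 3.58.1 under R 4.3.3 (lmFit, then eBayes; residual degrees of freedom 7, prior 3.64; no block), with the data.table package, version 1.17.8. Adjusted p-values are Benjamini-Hochberg over all kept probes, with a threshold of 0.05. Symbols came from the platform annotation: 35784 probes had 1 symbol, 0 several and 10453 none, and 28620 were matched to RefSeq by Entrez identifier, with 0 symbols changed. The probe with the highest mean over all arrays stood for a gene, 15908 in all. Every probe of the 10 genes was tested and counted in each comparison, but not every probe's value is printed for every comparison. Other autophagy genes and transcription factors, taken as 1 list, were reported by the 2 largest passing differences per comparison and direction. The 5 genes most like Sqstm1 were also reported. The members and lists were chosen with earlier results of these data known. Of the other genes, Atg14, Epg5, Optn and Rubcn were not matched on the array, and Atg4a, Bnip3, Rb1cc1 and Mitf were not tested. There were 23 alternatives, 11 of them leaving out 1 array each. The fit was tested on simulated data with independent noise and 200 probes changed. No shift shared by arrays was simulated, so that test says nothing about calls that involve the arrays that stand apart. The number of arrays limits the precision.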

Additional observations from a re-analysis of the deposited data

Results flagged for a closer look

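The response to rapamycin differed between the siRNAs at 1 of the 47 other autophagy genes, Stbd1, which encodes a receptor for glycogen. Its log2 level was 9.80 and 10.08 on the Luc ethanol arrays, 8.01, 8.04 and 8.00 with Luc siRNA and rapamycin, 8.49, 8.42 and 8.07 with Crebl2 siRNA and ethanol, and 8.07, 8.01 and 7.99 with both. Both Luc ethanol arrays were above all 9 others. The interaction of siRNA and rapamycin was 1.62 ± 0.17 (limma, adjusted p = 0.00815). With the 4 arrays that stand apart as a block it was 1.88 (adjusted p = 4.13e-08). It passed under 19 of the 21 alternatives that could be run for it. After neqc it was 1.89 (adjusted p = 0.0958) and without the second Luc ethanol array 1.49 (adjusted p = 0.117), and 0 of all probes passed in either limma fit, with 3648 and 2425 at an unadjusted p under 0.05.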

How the results depend on the processing

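For Crebl2 siRNA in ethanol, 1598 of all 28936 probes had an adjusted p under 0.05, against 733 with neqc, 3109 with the 4 arrays as a block, 3058 among the 7 arrays, 3473 with array weights and 0 with limma on only the groups compared, where 3662 had an unadjusted p under 0.05. Without 1 array it was 224 to 3109. Of the 17 members' probes 4 passed, against 1 with neqc and 0 with only the groups compared, where 7 had an unadjusted p under 0.05, and 0 to 6 without 1 array. For rapamycin with Luc siRNA, 2099 passed, against 1070 with neqc, 5172 with the block, 5113 among the 7 arrays, 4697 with only the groups compared and 4674 with array weights, and 584 to 5172 without 1 array. Of the members' probes 4 passed, against 1, 10, 10, 9 and 9, and 1 to 10 without 1 array. For Crebl2 siRNA in rapamycin, 8676 of 28936 passed, against 5231 of 15908 with 1 probe per gene and 575 with the block, and 5939 to 11790 without 1 array. Of the 17 members' probes 11 passed, against 7 with neqc, 7 of 10 with 1 probe per gene and 1 with the block, and 6 to 14 without 1 array. For rapamycin with Crebl2 siRNA, 2614 passed (1233 higher, 1381 lower), against 1700 with neqc (480 higher, 1220 lower), 2931 when quantile normalized again (975 higher, 1956 lower), 1546 with the block, 206 with only the groups compared and 10531 with array weights, and 630 to 10247 without 1 array. Of the members' probes 2 passed, against 1 with neqc, 4 with the block, 0 with only the groups compared (5 with an unadjusted p under 0.05) and 7 with array weights, and 1 to 7 without 1 array. With limma on only the groups compared, 6019 of all 28936 probes had an unadjusted p under 0.05. For the interaction 67 passed, against 0 with neqc (limma, 3648 with an unadjusted p under 0.05), 412 with the block and 6950 with array weights, and 0 to 7244 without 1 array. Of the members' probes 0 passed, against 1 with the block and 6 with array weights, and 0 to 7 without 1 array. Among the fits without 1 array, the highest count over all probes came in every comparison without replicate 3 of Crebl2 ethanol. The lowest came without the second Luc ethanol array for Crebl2 siRNA in ethanol, rapamycin with Luc siRNA and the interaction, without replicate 1 of Crebl2 ethanol for rapamycin with Crebl2 siRNA, and without replicate 3 of Crebl2 rapamycin for Crebl2 siRNA in rapamycin. The called differences that changed sign were those of Map1lc3b and Gabarapl1 between the siRNAs in rapamycin, at -0.079 and 0.099 with the block, and Sqstm1, both Ulk1 probes and Atg7, which had not passed, changed sign there too. The cause of these changes was not tested.

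The replicate numbers of the labels were checked for pairing. The deviations of same-numbered arrays from their group means correlated between -0.0353 and 0.146. With 2 or 3 arrays per group and replicate 3 of Crebl2 ethanol standing apart, these coefficients cannot tell whether same-numbered arrays were paired. With a replicate block, 968 probes and 1 member probe passed for Crebl2 siRNA in ethanol, where Wipi1 (adjusted p = 0.0706), Atg5 (0.0578) and Atg12 (0.0898) were lost, 4 member probes for rapamycin with Crebl2 siRNA, and 11 probes for the interaction, and the other counts stayed within 1.5 times of those without it.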
